A study of Bos taurus with 16 samples.

Results

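The fatty acid elongases ELOVL1 to ELOVL7 were followed in bovine blastocysts from cows fed different oilseeds. They were chosen by name, as the 7 members of the ELOVL family, and every probe that the array's annotation gives to one of these symbols was taken. All 7 genes were measured, by 11 of the 43794 probes, out of 15216 named genes. ELOVL5 and ELOVL6 had 3 probes each and the other 5 genes had 1 probe each.

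Blastocysts were flushed from the uterus of non-lactating Holstein cows 7.5 days after insemination with semen of one sire. The cows had been blocked by parity and body weight, and each diet held a rolled oilseed for at least 35 days. The control diet (CAN, 8 cows) held canola, a source of oleic acid. The other diets held sunflower (SUN, 7 cows), a source of linoleic acid, or flax (FLX, 8 cows), a source of α-linolenic acid. All of them were superstimulated with follicle-stimulating hormone, so no group stands for a natural cycle or an unsupplemented diet. Embryos of similar stage from a cow were pooled, and the sources used here do not tie replicates to cows. Each array compared 2 samples, labelled Cy3 and Cy5. There were 8 arrays of FLX and CAN and 8 of SUN and CAN, as 4 biological replicates per diet, and every replicate had a dye-exchange array. The CAN samples bear the same numbers, 1 to 4, in both comparisons, so FLX and SUN replicates of a number share a CAN label.

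Values are log2 ratios of diet over CAN, so 1 is a doubling, a value above 0 is higher in the diet group and a value below 0 is lower. Ratios were read as Cy5 over Cy3 and as logarithms to base 2. Both are likely but not stated. If the ratios are Cy3 over Cy5, all signs are the opposite. A ratio holds no level: how abundant an elongase was in the blastocyst, and whether its signal stood above background, is unknown here. The embryos were also measured whole, so fewer cells of a type and less RNA per cell cannot be told apart. Over all probes, replicates of a diet shared little of their pattern, with correlations of −0.264 to 0.0482 among FLX and −0.266 to 0.30 among SUN. The median standard error of a gene was 0.0752 for a diet against CAN and 0.106 for FLX against SUN. All FLX arrays were on slides 1 and 2 and all SUN arrays on slides 3 and 4, and in FLX against SUN the slide cannot be told apart from the diet.

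ELOVL proteins sit in the membrane of the endoplasmic reticulum and carry out the first and slowest step of the elongation cycle, in which a fatty acyl-CoA condenses with malonyl-CoA and grows by a pair of carbons. ELOVL1, ELOVL3, ELOVL6 and ELOVL7 act mainly on saturated and monounsaturated chains, ELOVL2 and ELOVL5 on polyunsaturated chains, and ELOVL4 makes the longest chains of both kinds. Linoleic and α-linolenic acid are desaturated and elongated in alternating steps to arachidonic and docosahexaenoic acid, respectively. Bovine embryos carry large stores of lipid droplets.

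No elongase passed the test in any comparison. By limma with Benjamini-Hochberg adjustment over all 15216 genes, 0 of 7 elongases reached an adjusted p of 0.05 in FLX against CAN, where 0% of all genes did. The count was also 0 of 7 in SUN against CAN, beside 0% of all genes, and 0 of 7 in FLX against SUN, beside 0% of all genes. At an unadjusted p under 0.05, again 0 of 7 elongases were found in each comparison, beside 3.15% of all genes for FLX against CAN, 6.18% for SUN against CAN and 2.09% for FLX against SUN. Of the 11 probes, too, 0 lay under it, beside 2.91%, 6.46% and 2.17% of all probes. This fit did not pair the replicate numbers. With the number as a block, 0 of 7 elongases lay under 0.05 in FLX against CAN, beside 8.88% of all genes. In that fit 1 of 7, ELOVL1, did so in SUN against CAN and in FLX against SUN, beside 13.9% and 5.61% of all genes. The median log2 ratio of the 7 genes was −0.026 in FLX and 0.044 in SUN, and the median difference FLX minus SUN was −0.10, beside medians over all genes of 0.0011, 0.0025 and −0.0029.

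Direction was shared by all 4 replicates for 1 elongase in each comparison, as it was for 10.5% of all genes in FLX against CAN, 13.4% in SUN against CAN and 13.5% in FLX against SUN. In FLX against CAN this was ELOVL6, above 0 in 4 of 4, as were 5.15% of all genes. In SUN against CAN it was ELOVL4, above 0 in 4 of 4, as were 6.55% of all genes. In FLX against SUN it was ELOVL1, below 0 for 4 of 4 numbers, as were 7.08% of all genes. Among 7 genes, 1 gene is near those shares. ELOVL1 and ELOVL6 had the widest spread of the family, and ELOVL3 and ELOVL7 the narrowest.

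**Figure D1:**
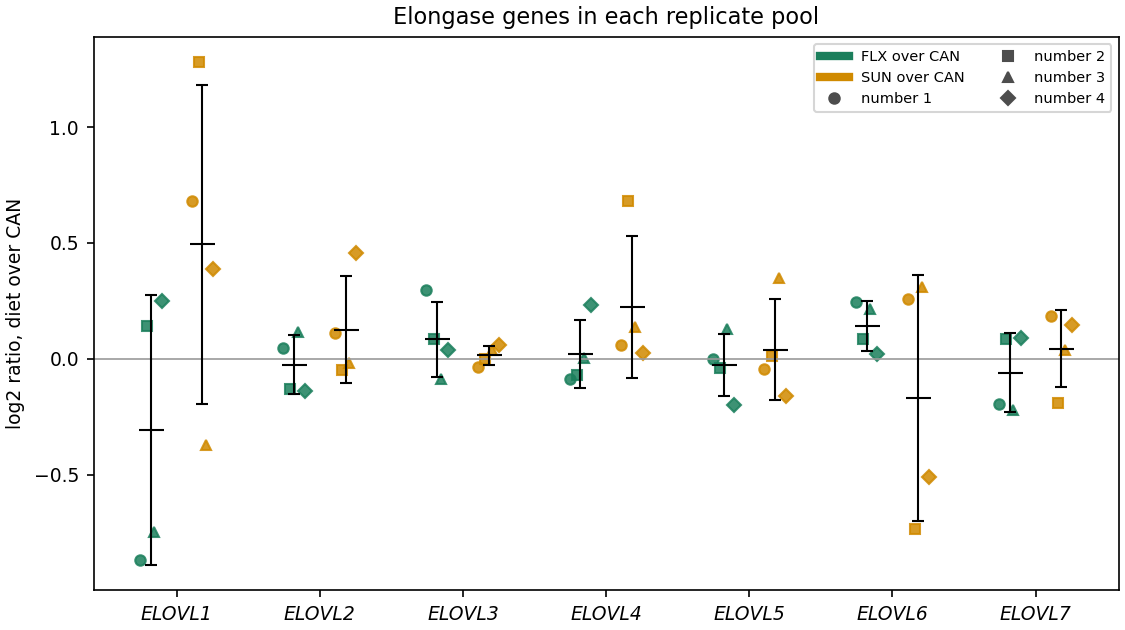
Log2 ratio of diet over CAN for each of the 7 elongases, 1 point per replicate (4 FLX, 4 SUN), with the mean and SD of each diet. ELOVL1 spreads from −0.87 to 1.28 and ELOVL6 from −0.74 to 0.31, while the values of ELOVL3 lie between −0.089 and 0.30.

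Of the elongases of saturated and monounsaturated chains, ELOVL1 varied most. ELOVL1 (probe EMBV3_22476) extends saturated chains to the very long acyl groups of sphingolipids. In the FLX replicates 1 to 4 its log2 ratios to CAN were −0.87, 0.14, −0.75 and 0.25. In the SUN replicates 1 to 4 they were 0.68, 1.28, −0.37 and 0.39. FLX replicates 1 and 3 were low, SUN replicates 1 and 2 were high, and the values of the diets overlapped. Against CAN the mean was −0.31 ± 0.58 in FLX (SD, n = 4) and 0.49 ± 0.69 in SUN (SD, n = 4). By limma neither reached the threshold, with adjusted p = 1.00 for FLX and adjusted p = 0.81 for SUN. The 95% confidence intervals ran from −0.93 to 0.32 and from −0.13 to 1.12.

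The difference FLX minus SUN in ELOVL1 was −1.55, −1.14, −0.37 and −0.14 for numbers 1 to 4. As the mean of an array and its dye exchange, ELOVL1 was thus lower in FLX than in SUN for every number, by widely different amounts. The mean of −0.80 ± 0.66 (SD over 4 numbers) corresponds to 1.74-fold lower, with a 95% confidence interval from 3.22-fold lower to 1.06-fold higher and adjusted p = 1.00 by limma (unadjusted 0.0709). With the replicate number as a block, which takes out what the replicates of a number share, the unadjusted p of this difference was 0.0126 and the adjusted p 0.84. Its 95% confidence interval in that fit ran from −1.36 to −0.24. That fit placed 5.61% of all genes under an unadjusted p of 0.05. For ELOVL1 against CAN the blocked unadjusted p was 0.0225 in SUN and 0.109 in FLX, where 13.9% and 8.88% of all genes lay under 0.05. Without SUN replicate 2 the difference was −0.54, and without SUN replicate 3 it was −1.09.

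The array and its dye exchange did not give the same size for ELOVL1. With the diet sample in Cy5, the FLX replicates read −1.08, −0.018, −1.33 and −0.30, and with it in Cy3 they read −0.66, 0.30, −0.17 and 0.79. All 4 FLX arrays with the diet in Cy5 were below 0, and the 4 with the diet in Cy3 fell on both sides. The mean FLX ratio was −0.68 from the first set alone and 0.065 from the second set alone, so its direction turned. In SUN the replicates read 1.12, 1.60, −0.46 and 0.385 with the diet in Cy5, and 0.24, 0.96, −0.29 and 0.386 with it in Cy3. Both orientations had the same sign in all 4 SUN replicates and in 6 of 8 replicates in all. Over all probes and replicates, 53.82% of values had the same sign in both orientations. The mean FLX minus SUN was below 0 in each orientation, at −1.34 and −0.26. With the diet in Cy5, FLX was below SUN for every number. With it in Cy3, FLX was above SUN for numbers 3 (−0.17 against −0.29) and 4 (0.79 against 0.386). The mean gap between orientations was 0.58, against a median of 0.23 over all probes.

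**Figure D2:**
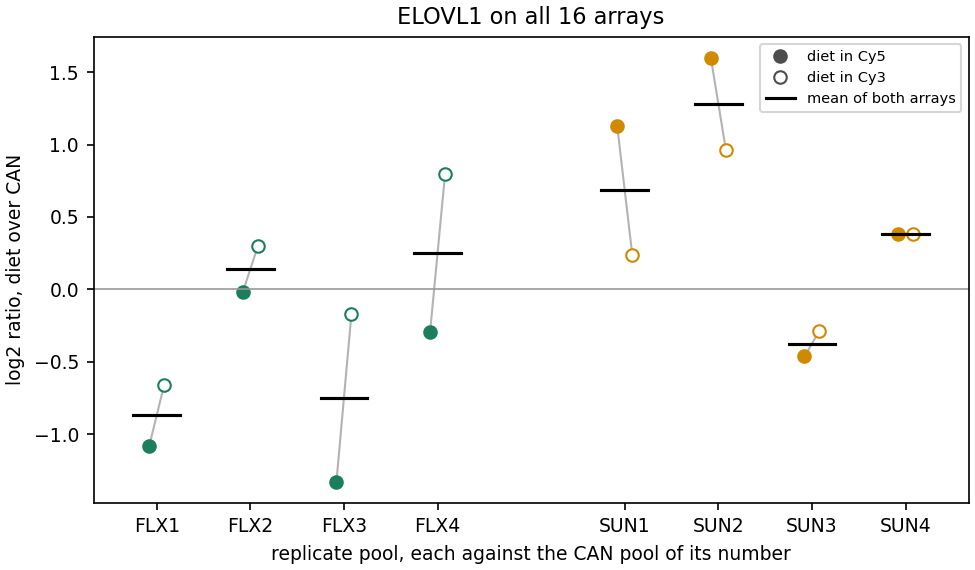
Log2 ratio of diet over CAN for ELOVL1 on each of the 16 arrays, with the array and its dye exchange of a replicate joined by a line (filled, diet in Cy5; open, diet in Cy3). In SUN both arrays of each replicate have the same sign, and in FLX replicates 2 and 4 they lie on opposite sides of 0.

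The spread of ELOVL1 stood high among genes. Its SD over the 8 replicates was 0.73, at percentile 98.84 of all genes and percentile 98.61 of the 11182 genes with 1 probe. In RefSeq's gene table (assembly ARS-UCD2.0) the locus LOC100335822, annotated as protein-coding, overlaps ELOVL1. Whether the probe lies in the shared stretch was not examined here.

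ELOVL6, which extends palmitate and palmitoleate to chains of stearate and oleate length, had log2 ratios of 0.25, 0.086, 0.21 and 0.019 in FLX replicates 1 to 4 as the mean of its 3 probes. In SUN replicates 1 to 4 the values were 0.26, −0.74, 0.31 and −0.51. All FLX values were above 0 and close together, while SUN replicates 1 and 3 were above 0 and replicates 2 and 4 far below it. The means were 0.14 ± 0.11 in FLX (SD, n = 4, adjusted p = 1.00 by limma) and −0.17 ± 0.53 in SUN (SD, n = 4, adjusted p = 0.856). FLX minus SUN was −0.014, 0.82, −0.096 and 0.53 for numbers 1 to 4, with a mean of 0.31 ± 0.44 (SD) and a 95% confidence interval from −0.23 to 0.85. Without SUN replicate 2 the SUN mean turned to 0.019, and with the diet in Cy5 alone the FLX mean turned to −0.036.

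The 3 probes of ELOVL6 varied together in the SUN replicates. In SUN replicates 1 to 4, EMBV3_13373 read 0.73, −1.04, 0.15 and −0.90, EMBV3_30333 read −0.13, −0.81, 0.12 and −0.35, and EMBV3_40920 read 0.18, −0.36, 0.65 and −0.28. Replicates 2 and 4 were low on every probe. Between probes the correlation over the 8 replicates was 0.66 to 0.73, and their median of 0.677 lay at percentile 91.11 of 1519 genes with 3 probes, whose own median was 0.0958. These 8 points span both diets and share arrays, dyes and CAN labels. Pairs of probes had the same sign in 4, 5 and 7 of 8 replicates. The probe of smallest p was EMBV3_30333 in SUN, at −0.29 ± 0.40 (SD, n = 4), with an unadjusted p of 0.0731 and adjusted p = 0.784 by limma over all probes.

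In FLX the ELOVL6 probes did not share a direction. EMBV3_13373 read 0.060, 0.043, 0.41 and 0.25 in replicates 1 to 4, EMBV3_30333 read 0.30, −0.23, −0.12 and −0.067, and EMBV3_40920 read 0.37, 0.44, 0.35 and −0.13. EMBV3_13373 also differed by dye: its mean FLX ratio was −0.12 with the diet in Cy5 and 0.50 with it in Cy3, and in 7 of 8 replicates the Cy3 orientation was higher.

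**Figure D3:**
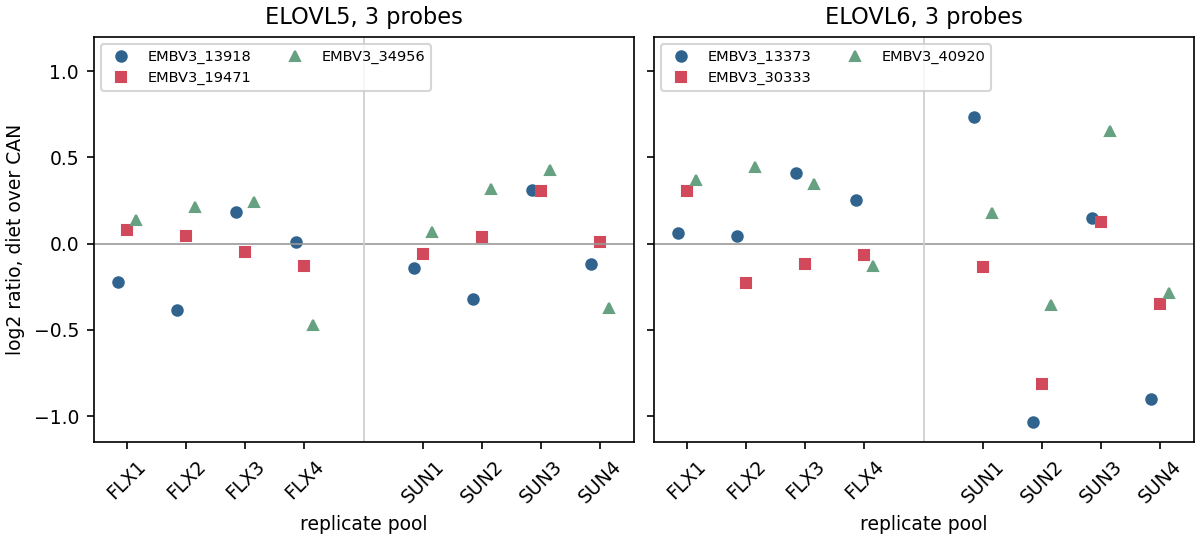
Log2 ratio of diet over CAN for each probe of ELOVL5 and ELOVL6 in the 4 FLX and 4 SUN replicates, each value the mean of an array and its dye exchange. The 3 ELOVL6 probes are low together in SUN replicates 2 and 4, and the ELOVL5 probes spread most in the replicates numbered 2 and 4.

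ELOVL3, known in mice for its part in skin lipids and brown fat, stayed near 0 (probe EMBV3_39580). Its log2 ratios were 0.30, 0.087, −0.089 and 0.038 in FLX replicates 1 to 4 and ran from −0.036 to 0.057 in SUN. Only FLX replicate 1 lay apart from the other 7 values, and there the orientations differed: 0.67 with the diet in Cy5 and −0.076 with it in Cy3. The means were 0.083 ± 0.16 in FLX and 0.014 ± 0.041 in SUN (SD, n = 4 each), and the 95% confidence interval of FLX minus SUN ran from −0.13 to 0.27.

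ELOVL7 (probe EMBV3_36936) also acts on saturated acyl chains. Its log2 ratios were −0.19, 0.085, −0.22 and 0.089 in FLX replicates 1 to 4, and 0.18, −0.19, 0.039 and 0.14 in SUN. The groups overlapped, with FLX low in replicates 1 and 3 and SUN low in replicate 2. The means were −0.061 ± 0.17 in FLX and 0.044 ± 0.17 in SUN (SD, n = 4 each), and the 95% confidence interval of FLX minus SUN ran from −0.37 to 0.16. A pseudogene, LOC107131564, overlaps ELOVL7 in RefSeq's gene table.

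Of the elongases of polyunsaturated and longest chains, ELOVL4 came nearest to a shift in SUN. ELOVL4 (probe EMBV3_13887) makes the ultra-long acyl chains of retina, brain, skin and testis. In SUN replicates 1 to 4 its log2 ratios were 0.059, 0.68, 0.14 and 0.024, and in FLX they were −0.087, −0.070, 0.0033 and 0.23. All SUN values were above 0, with replicate 2 far above the rest, and the FLX values overlapped them. The SUN mean was 0.22 ± 0.31 (SD, n = 4; 95% confidence interval −0.024 to 0.47; adjusted p = 0.804 by limma, unadjusted 0.0709), and the FLX mean was 0.019 ± 0.15 (SD, n = 4).

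The SUN value of ELOVL4 rested on 1 replicate and 1 dye orientation. Without SUN replicate 2 the mean was 0.073. It was 0.41 with the diet in Cy5 and 0.042 with it in Cy3, and the Cy5 orientation was the higher in 7 of 8 replicates of both diets. FLX minus SUN in ELOVL4 was −0.15, −0.75, −0.13 and 0.21 for numbers 1 to 4, with a mean of −0.21 ± 0.40 (SD) and a 95% confidence interval from −0.56 to 0.15.

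ELOVL5 elongates the first desaturation products of linoleic and α-linolenic acid. As the mean of 3 probes its log2 ratios were −0.0022, −0.042, 0.13 and −0.20 in FLX replicates 1 to 4, and −0.045, 0.011, 0.35 and −0.16 in SUN. Replicate 3 was the highest and replicate 4 the lowest in both diets, which share CAN labels. The means were −0.029 ± 0.13 in FLX and 0.038 ± 0.22 in SUN (SD, n = 4 each), and FLX minus SUN had a 95% confidence interval from −0.34 to 0.21.

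The ELOVL5 probes differed among themselves. EMBV3_34956 read 0.14, 0.21, 0.24 and −0.47 in FLX replicates 1 to 4 and 0.067, 0.32, 0.43 and −0.37 in SUN. EMBV3_13918 read −0.22, −0.38, 0.19 and 0.0073 in FLX and −0.14, −0.32, 0.31 and −0.12 in SUN. Replicate 4 was the low one on EMBV3_34956 and replicate 2 the low one on EMBV3_13918, in both diets. EMBV3_19471 stayed between −0.13 and 0.31. Correlations between the probes over the 8 replicates were 0.075, 0.30 and 0.63, and EMBV3_13918 read higher with the diet in Cy5 in 8 of 8 replicates.

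ELOVL2 (probe EMBV3_40830) carries out the later polyunsaturated elongation on the way to docosahexaenoic acid. Its log2 ratios were 0.047, −0.13, 0.12 and −0.14 in FLX replicates 1 to 4, and 0.11, −0.049, −0.020 and 0.46 in SUN. SUN replicate 4 lay above all other values, and the other SUN values fell within the FLX range. The means were −0.026 ± 0.13 in FLX and 0.12 ± 0.23 in SUN (SD, n = 4 each). FLX minus SUN had a mean of −0.15 and a 95% confidence interval from −0.43 to 0.13, and without SUN replicate 4 it was −0.040.

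**Figure D4:**
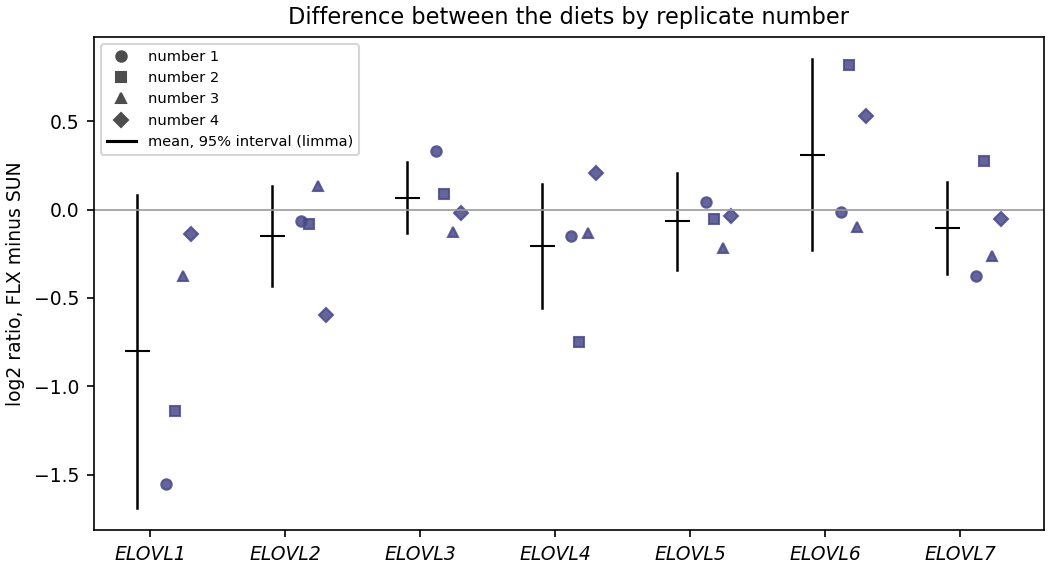
Difference FLX minus SUN in log2 ratio for each elongase, 1 point per replicate number (1 to 4), with the model's estimate and its 95% confidence interval. The 4 ELOVL1 points lie below 0, from −1.55 to −0.14. The intervals are those of the fit without the replicate block, and the interval of each of the 7 genes includes 0. With the block, the interval of ELOVL1 ran from −1.36 to −0.24 (adjusted p = 0.84 by limma).

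SUN replicate 2 had the highest SUN values of ELOVL1 and ELOVL4 and the lowest of ELOVL2, ELOVL6 and ELOVL7. Without SUN replicate 2 the SUN mean of ELOVL1 was 0.23 in place of 0.49.

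For each elongase the 2 genes of most similar pattern were taken by correlation over the 8 replicates, as a description among 15216 genes that share arrays and CAN labels. ELOVL1 was followed by LOC783224 (r = 0.98) and GPAT3 (r = 0.97, 3 probes), the acyltransferase that starts glycerolipid synthesis in the endoplasmic reticulum. GPAT3 read −0.33, 0.15, −0.56 and 0.13 in FLX replicates 1 to 4 and 0.41, 1.05, −0.23 and 0.41 in SUN. As for ELOVL1, FLX replicates 1 and 3 and SUN replicate 3 were below 0 and the other 5 replicates above it. ELOVL6 was followed by LRRC8D (r = 0.98), a subunit of volume-regulated anion channels, and MAEL (r = 0.98), a factor of transposon silencing in germ cells.

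For the other elongases the nearest patterns were CYTH4 (r = 0.97) and MTMR1 (r = 0.96) for ELOVL2, and CC2D1A and SPNS2 (r = 0.96 each) for ELOVL3. They were BOSTAUV1R418 and SLC44A5 (r = 0.96 each) for ELOVL4, and NEUROD6 (r = 0.98) and LOC781533 (r = 0.96) for ELOVL5. For ELOVL7, PRM3 and URB2 (r = 0.93 each) were the nearest. With 8 points and this many genes to choose from, high correlations are found for any gene.

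The rest of the elongation pathway was taken from 6 lists, with 41 measured genes. No listed gene passed the test in any comparison, beside the 0% of all genes given above, and few lay under an unadjusted p of 0.05. Of the 41 genes, 1 did so in FLX against CAN, 2 in SUN against CAN and 0 in FLX against SUN. Beside 3.15%, 6.18% and 2.09% of all genes, these counts are near or below the background in this fit. With the replicate number as a block the counts were 7, 6 and 2 of the 41, beside 8.88%, 13.9% and 5.61% of all genes. The share was above that of all genes in FLX and near it in the other comparisons. Of the list members named below, ACLY, FADS2, CERS5, SREBF1 and SCAP were among the 7 in FLX. Their blocked unadjusted p ran from 0.0110 to 0.0278 by limma. No gene passed the adjusted test in that fit.

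The partners of the cycle are the ketoacyl reductase, the dehydratases and the enoyl reductase that complete each round. Of 7 listed, 5 were measured. The ketoacyl reductase HSD17B12 and the dehydratase HACD1 were not, so nothing is known here of the reductase step. Of the 5 measured, 0 passed, and their medians were 0.045 in FLX, 0.0095 in SUN and 0.029 in FLX minus SUN. The smallest p belonged to HACD2, a dehydratase, with FLX minus SUN of −0.42, −0.73, −0.17 and 0.0032 (mean −0.33, unadjusted p = 0.147, adjusted p = 1.00 by limma). The 6 genes of malonyl-CoA and palmitate supply had medians of 0.0076 in FLX and 0.063 in SUN. ACLY, which makes cytosolic acetyl-CoA, read 0.43, 0.081, 0.38 and 0.047 in FLX (mean 0.23, unadjusted p = 0.0503, adjusted p = 1.00 by limma).

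The desaturases alternate with ELOVL5 and ELOVL2. Their 6 genes had medians of −0.13 in FLX, 0.12 in SUN and −0.28 in FLX minus SUN. FADS2, which carries out the first desaturation step on linoleic and α-linolenic acid, read −0.81, −0.49, −0.92 and −0.038 in FLX replicates 1 to 4 and 0.20, 1.19, −0.76 and 0.60 in SUN. FLX minus SUN was −1.01, −1.68, −0.17 and −0.64, so FADS2 was below 0 for 4 of 4 numbers, as were 7.08% of all genes. Its mean of −0.87 ± 0.64 (SD over 4 numbers) had an unadjusted p of 0.0541 and adjusted p = 1.00 by limma. In FLX against CAN, FADS2 was below 0 in 4 of 4 replicates, as were 5.36% of all genes. There its unadjusted p by limma was 0.0738, and 0.0113 with the replicate number as a block.

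Ceramide synthases join acyl chains, among them those made by ELOVL1 and ELOVL3, to sphingoid bases. Their 6 genes had medians of 0.022 in FLX and 0.056 in SUN. CERS5 had the smallest p and read 0.15, 0.67, 0.0078 and 0.23 in SUN (mean 0.26, unadjusted p = 0.0904, adjusted p = 0.805 by limma). Of the genes of peroxisomal oxidation, which shortens very long chains, 7 of 9 were measured, with medians of 0.10 in FLX and −0.015 in SUN. HSD17B4, the bifunctional enzyme of that pathway, read 0.79, 0.92, −0.17 and 0.13 in SUN (mean 0.42, unadjusted p = 0.0359, adjusted p = 0.799 by limma).

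All 11 lipogenic regulators were measured, with medians of −0.0078 in FLX and 0.019 in SUN. SREBF1, the transcription factor that drives genes of fatty acid synthesis and elongation, read −0.55, −0.26, −0.39 and −0.038 in FLX (mean −0.31, unadjusted p = 0.0411, adjusted p = 1.00 by limma). SCAP, its escort protein, read −0.15, −0.49, −0.14 and −0.28 in SUN (mean −0.26, unadjusted p = 0.0194, adjusted p = 0.799 by limma). Both were below 0 in 4 of 4 replicates of the named diet, as were 5.36% of all genes in FLX and 6.85% in SUN, and neither passed.

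**Figure D5:**
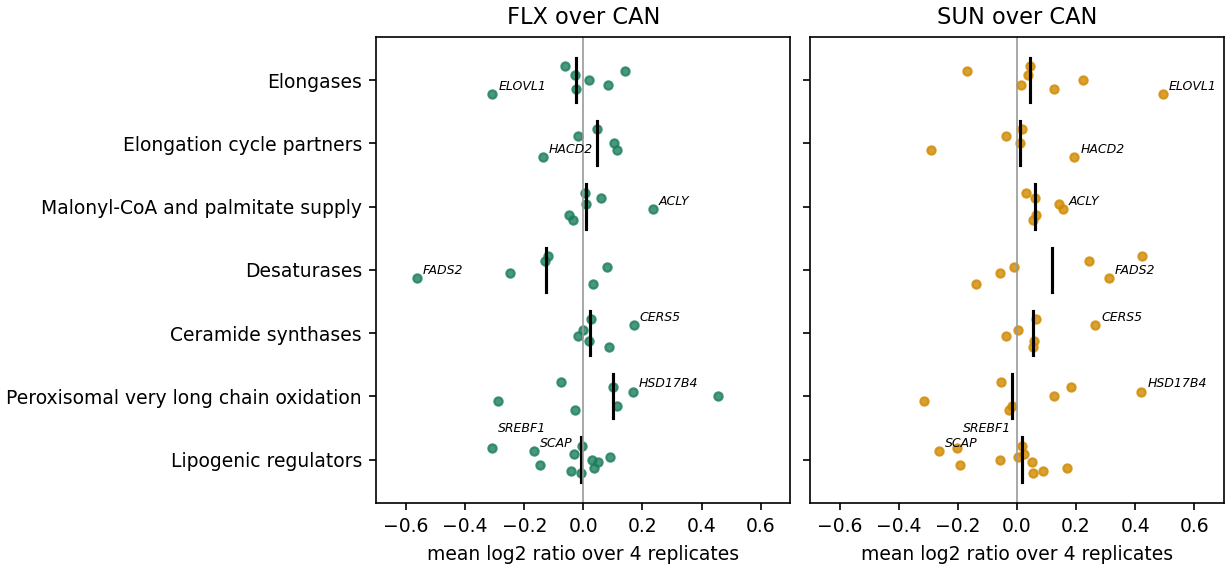
Mean log2 ratio over 4 replicates of each measured gene of the elongases and the 6 pathway lists, 1 point per gene, in FLX over CAN (left) and SUN over CAN (right), with a bar at the median of each list and labels on ELOVL1 and the list members named in the text. ELOVL1 and FADS2 lie below 0 in FLX, at −0.31 and −0.56, and above 0 in SUN, at 0.49 and 0.31.

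Markers of the cell types in or around the blastocyst also varied between replicates. Of 14 trophectoderm markers 13 were measured, and their median log2 ratio was −0.040, −0.14, −0.20 and 0.13 in FLX replicates 1 to 4 and 0.10, 0.089, −0.29 and 0.15 in SUN. The median was lowest in replicate 3 of both diets, where ELOVL1 read −0.75 and −0.37, but ELOVL1 was lowest in FLX replicate 1, at −0.87, where the marker median was −0.040. In FLX minus SUN 10 of the 13 markers had a mean below 0. Their median was −0.19, beside −0.0029 over all genes, −0.10 for the elongases and −0.80 for ELOVL1. Of the 13 markers, 2 were below 0 for every number, as were 7.08% of all genes. Of 8 markers of uterine epithelium 6 were measured, with medians of −0.49 in FLX replicate 3, −0.76 in SUN replicate 3 and −0.080 to 0.074 in the other 6 replicates. Their part in the elongase values was not tested. As ratios hold no level, which of these markers were absent from the embryos is unknown here.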

How the data were processed

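Amplified RNA from pools of day 7.5 blastocysts was hybridised to 16 arrays of 2 dyes, 8 for FLX against CAN and 8 for SUN against CAN. The deposited values are log2 ratios, 1 per probe and array, as normalised by the authors. The sources used here do not state their scaling, centring or direction, and Cy5 over Cy3 and base 2 were assumed. Arrays were turned to diet over CAN, since an array and its dye exchange correlated at −0.616 to −0.165 as deposited, and the arrays of a replicate were averaged (n = 4 per comparison). Gene values were means of probes. Of 43794 probes, 21790 had 1 gene symbol, 0 had several and 22004 had none. Symbols of 1524 probes were updated through RefSeq's gene table (assembly ARS-UCD2.0).

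A model in limma 3.58.1 (R 4.3.3) was fitted with lmFit and eBayes to the 8 replicates, with 6 residual degrees of freedom and 2.31 from the prior. It gave both diets against CAN and their difference, with two-sided p-values adjusted over all genes, or all probes, to a false discovery rate of 0.05. Precision is limited by the number of replicate pools, and p-values measure the spread between these pools. The code was tested on simulated data.

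Replicate numbers pair the samples: deviations from the diet mean correlated at 0.446, 0.588, 0.581 and 0.436 between FLX and SUN of numbers 1 to 4, whose CAN samples carry the same names in the labels. The fit with that number as a block takes out differences between CAN pools, so for a diet against CAN it does not count them as error. If FLX and SUN of a number share a CAN pool, that pool cancels in their difference. The fit without the block still counts its variation as error. Members and gene lists were chosen with earlier results of these data known. The text names every elongase, list members at an unadjusted p under 0.05 or with the smallest p of their list, and the 2 genes most correlated with each elongase. The markers covered 6 cell types. The alternatives were the block, the slide as a random block, each dye orientation alone, centring, scaling, separate fits, other summaries of probes and leaving out each replicate. Figures were drawn with matplotlib 3.10.9.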

Additional observations from a re-analysis of the deposited data

Results flagged for a closer look

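In 39 sets of 4 replicate values of the elongase genes and probes, 2 held a value far from the other 3, and chance alone marks about 5% of such sets. ELOVL5 probe EMBV3_34956 read −0.47 in FLX replicate 4, while FLX replicates 1 to 3 read 0.14 to 0.24. ELOVL6 probe EMBV3_40920 read −0.13 in FLX replicate 4, while FLX replicates 1 to 3 read 0.35 to 0.44. The SUN replicate of the same number was also low on the ELOVL5 probe, at −0.37.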

How the results depend on the processing

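Of 653 elongase values recomputed for 39 gene and probe results, 604 kept their direction and side of the threshold and 49 turned direction. No setting brought an elongase past an adjusted p of 0.05, and the count of genes past it stayed 0 in each comparison. Of the 39 results, 15 turned under no setting, among them FLX minus SUN of ELOVL1, which ran from −1.34 to −0.26. The cause of the changes below was not tested.

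With the diet in Cy5 only, FLX against CAN turned in ELOVL2 (0.081), ELOVL5 (0.073), ELOVL6 (−0.036) and the probes EMBV3_13918 (0.039), EMBV3_19471 (0.011) and EMBV3_13373 (−0.12). SUN against CAN turned in ELOVL5 (−0.025), ELOVL7 (−0.031) and the probes EMBV3_13918 (0.0062), EMBV3_19471 (−0.021), EMBV3_34956 (−0.060) and EMBV3_40920 (−0.067). FLX against SUN turned in ELOVL5 (0.098) and the probes EMBV3_13918 (0.033), EMBV3_19471 (0.033) and EMBV3_34956 (0.23). With the diet in Cy3 only, FLX against CAN turned in ELOVL1 (0.065), ELOVL3 (−0.025), ELOVL4 (−0.17) and the probes EMBV3_34956 (−0.11) and EMBV3_30333 (0.041), and ELOVL3 turned in SUN (−0.017) and in FLX against SUN (−0.0074). With the median of its probes ELOVL5 turned in FLX (0.044) and in FLX against SUN (0.0040), and with the probe of largest SD in FLX (0.031).

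Leaving out 1 replicate at a time turned ELOVL2 in FLX (−0.074 to 0.011), ELOVL3 in FLX against SUN (−0.0025 to 0.13), ELOVL4 in FLX (−0.051 to 0.055), ELOVL6 in SUN (−0.33 to 0.019) and ELOVL7 in SUN (−0.0025 to 0.12). It turned ELOVL5 in FLX (−0.081 to 0.028), in SUN (−0.065 to 0.10) and in FLX against SUN (−0.13 to 0.036). Among probes it turned EMBV3_13918 in SUN (−0.19 to 0.016) and FLX against SUN (−0.13 to 0.090), EMBV3_19471 in FLX (−0.044 to 0.025) and SUN (−0.0055 to 0.12), and EMBV3_30333 in FLX (−0.14 to 0.040). It also turned EMBV3_34956 in FLX (−0.040 to 0.20) and FLX against SUN (−0.24 to 0.089), and EMBV3_40920 in SUN (−0.16 to 0.18).

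At an unadjusted p under 0.05, the replicate block, which pairs the samples, changed no call past adjusted p and gave 1351 genes for FLX (480 without it), 2118 for SUN (941) and 853 for FLX against SUN (318). It gave 1 elongase, ELOVL1, in SUN and in FLX against SUN, and 7, 6 and 2 pathway genes in FLX, SUN and FLX against SUN (1, 2 and 0 without it). With the diet in Cy5 only there were 1901, 2093 and 688 genes, and 7, 4 and 1 pathway genes. In that setting the 1 elongase was ELOVL4 in SUN and ELOVL1 in FLX against SUN. With the diet in Cy3 only there were 1027, 1973 and 627 genes, and 0 pathway genes in FLX and 5 in SUN. The slide as a random block gave 2 pathway genes in FLX and 1 in FLX against SUN, centring 2 in FLX, and separate fits 3 in FLX. Scaling the arrays gave 730 genes in FLX and 625 in SUN, with 3 pathway genes in FLX and 1 in FLX against SUN. Leaving out 1 replicate gave 346 to 788, 588 to 1707 and 261 to 794 genes, 0 to 6, 1 to 9 and 0 to 5 pathway genes, and 0 to 1 elongases in SUN and in FLX against SUN.

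Elongases with one sign in every replicate (1 in each comparison) numbered 2 in FLX with the diet in Cy5 only and 2 with it in Cy3 only, 0 in SUN with it in Cy3 only, and 0 in FLX and 2 in FLX against SUN with the median of probes. Leaving out 1 replicate they numbered 1 to 3 in FLX, 1 to 2 in SUN and 2 in FLX against SUN. Signal over background is unknown here, so weak probes could not be filtered.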

Other observations

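No gene of the other marker lists passed the adjusted test. The 8 inner cell mass and epiblast markers had a median log2 ratio of −0.022 in FLX and 0.012 in SUN, and the 7 measured hypoblast markers had −0.0025 and 0.019. The 7 blood markers had medians of 0.055 in FLX and 0.012 in SUN. The 11 cumulus and granulosa markers had medians of −0.056 in FLX, 0.092 in SUN and −0.12 in FLX minus SUN, beside 0.0011, 0.0025 and −0.0029 over all genes. For 4 of these 11 markers FLX minus SUN was below 0 for every replicate number, as it was for 7.08% of all genes, and the count was 3 with the median of probes as the gene value.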
